A study of Mus musculus with 6 samples.

Results

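Mitosis and cytokinesis genes encode the proteins that take a cell from entry into mitosis to the cut between its daughters. The 55 genes described here were chosen by name, as a list, and all 55 were found among the 18288 gene symbols of the deposited table. They were placed in 9 groups by role: CDK1 with its cyclins and regulators, mitotic kinases with the chromosomal passenger complex, the spindle checkpoint, the kinetochore, kinesins, spindle-associated proteins, condensin with other mitotic chromosome proteins, cytokinesis, and transcription factors. The study sequenced the RNA of mouse CD8+ T cells, the cytotoxic lymphocytes, that had been activated in culture for 2 days. The groups are Nae1T-KO, with 3 libraries, and Nae1WT, the wild-type control, with 3. Nae1 encodes a subunit of the enzyme that activates NEDD8, a ubiquitin-like protein whose attachment to cullins switches on cullin-RING ubiquitin ligases. The labels give neither the deleted part of Nae1, nor what drives its deletion, nor the age of the mice, nor the activating agents. They call the replicates biological but do not say how many mice gave the cells, and p-values therefore reflect only how much these libraries vary.

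CDK1 bound to cyclin A or cyclin B drives entry into mitosis, and the phosphatases of the CDC25 family switch it on. At the kinetochores, where chromosomes meet the spindle, checkpoint proteins such as MAD2 hold back CDC20 until all chromosomes are attached. CDC20 then activates the anaphase-promoting complex, a ubiquitin ligase that destroys cyclin B and securin, after which kinesins, PRC1 and anillin help build the division furrow. Transcription of these genes rises late in the cell cycle under FOXM1 and the MYBL2-MuvB complex, which act at a promoter element called the cell cycle genes homology region (CHR). CD8+ T cells in the first days after activation are among the fastest dividing cells of the body, and these transcripts are abundant in them.

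The promoters of the genes share sequence features that their choice did not use. RefSeq promoters (GRCm38.p6, 250 bases before to 50 after the start) were on hand for 45 of the 55 genes, 48 promoters in all. The CHR letters TTTGAA, on either strand, were in 75.0% of the 48 and in 17.9% of all 32851 promoters of the same length. A CCAAT box (CCAAT on either strand), where the factor NF-Y binds, was in 75.0% of the 48 and in 37.4% of all. Both were in 64.6% of the 48, against 7.0% of all. Matches of the 2 motifs may share an end base, and a match describes letters only. Below are the 150 bases before the start, 5′ to 3′ on the gene's strand, of the genes with a promoter entry that changed most in each direction, Cdc25b and Kif23 (higher in Nae1T-KO) and Mad2l1 and Hmmr (lower). Cdc20 and Cdk1, added after their values were seen, show both motifs in 1 stretch. The start is that of the promoter entry. RefSeq places the start of the Cdc25b gene farther upstream, at 131186436, so the Cdc25b stretch lies inside the gene. Parts of the Kif23 and Hmmr stretches also lie inside their genes. Capitals mark either motif.
Cdc25b (chr2:131186798-131186947, plus strand): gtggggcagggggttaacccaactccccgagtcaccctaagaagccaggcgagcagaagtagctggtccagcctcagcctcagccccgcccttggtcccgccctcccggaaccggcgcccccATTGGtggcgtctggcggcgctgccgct
Kif23 (chr9:61946800-61946949, minus strand): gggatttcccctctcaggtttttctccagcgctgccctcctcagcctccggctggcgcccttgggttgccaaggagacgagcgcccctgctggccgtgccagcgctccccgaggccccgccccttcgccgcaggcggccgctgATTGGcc
Mad2l1 (chr6:66535071-66535220, plus strand): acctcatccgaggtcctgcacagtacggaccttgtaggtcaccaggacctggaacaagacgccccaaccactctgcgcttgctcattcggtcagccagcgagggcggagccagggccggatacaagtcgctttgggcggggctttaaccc
Hmmr (chr11:40733438-40733587, minus strand): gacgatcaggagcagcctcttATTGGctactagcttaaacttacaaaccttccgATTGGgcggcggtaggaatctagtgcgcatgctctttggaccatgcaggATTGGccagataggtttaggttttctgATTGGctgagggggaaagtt
Cdc20 (chr4:118437344-118437493, minus strand): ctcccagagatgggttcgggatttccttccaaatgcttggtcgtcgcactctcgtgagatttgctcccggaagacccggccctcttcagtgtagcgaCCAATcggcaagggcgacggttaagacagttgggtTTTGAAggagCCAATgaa
Cdk1 (chr10:69352913-69353062, minus strand): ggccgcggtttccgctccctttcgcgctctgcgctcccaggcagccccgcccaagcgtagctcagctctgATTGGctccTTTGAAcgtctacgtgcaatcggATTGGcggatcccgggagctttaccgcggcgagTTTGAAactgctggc
The stretch of Mad2l1 holds neither motif, and that of Hmmr holds 4 CCAAT boxes, with another farther upstream. Kif23 and Hmmr have a CHR just after the start, at bases 3 and 9, outside the stretch shown. Genes that changed in either direction carried both motifs: 4 of the 6 higher genes with a promoter entry, 4 of the 5 lower ones, and 20 of the 34 that did not pass the test.

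Values are the authors' normalized counts, reads scaled by a size factor for each library, and a gene was called if its adjusted p was under 0.05 (limma on log2(normalized count + 1), Benjamini-Hochberg over all 13819 tested genes). Nae1 itself had 390.3, 338 and 367 normalized counts across Nae1T-KO, against 1601, 1806 and 1882 across Nae1WT, 4.82-fold lower in Nae1T-KO (-2.27 ± 0.09 (SE), at adjusted p = 5.03e-07). The libraries held 15628252 to 25444653 reads. Markers of CD8 T cells were abundant in every library: the 7 measured summed to 26492, 27587 and 29016 across Nae1T-KO, and to 29364, 26964 and 25753 across Nae1WT. Of the 7, Cd3g was lower in Nae1T-KO (adjusted p = 0.00365 in limma) and Cd5 higher (adjusted p = 0.0104), and the others did not pass. Cd4 stayed at 118 or lower in Nae1T-KO and 119 or lower in Nae1WT. Erythroid markers (8 measured) summed to 376, 2058 and 203 across Nae1T-KO, and to 145, 319 and 654 across Nae1WT. B cell markers (9 of 10 measured) summed to 215, 620.4 and 289.8 across Nae1T-KO, and to 250.5, 239 and 370.0 across Nae1WT. Myeloid and dendritic markers (6 of 10 measured) summed to 139, 227 and 169.6 across Nae1T-KO, and to 98.2, 69.0 and 84.5 across Nae1WT. CD4 T cell markers (4 measured) summed to 126, 273 and 203 across Nae1T-KO, and to 212, 109.8 and 135 across Nae1WT. Nae1T-KO replicate 2 was highest in these 4 lists. The myeloid and dendritic sum was also higher in every Nae1T-KO library than in every Nae1WT library. Of that list Xcr1, at 17.6 normalized counts or lower, was called higher in Nae1T-KO (adjusted p = 0.0350 in limma). The part of these 4 lists in the results was not tested. Nae1T-KO replicate 2 was the highest of the 6 libraries for 1 of the 55 mitosis genes. Klrb1c and Ncr1, the measured NK markers, summed to at most 26.3 in Nae1T-KO and 25.8 in Nae1WT. The libraries also differed in sex, read from Xist, above 1000 in replicates 1 and 2 of Nae1T-KO and in replicate 3 of Nae1WT.

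Single mitosis genes changed in both directions, by small amounts. All 55 genes passed the filter on low values, with 236 to 21948 reads per gene and library. Of the 55, 7 were higher in Nae1T-KO (Cdc25b, Incenp, Kif23, Kif2c, Plk1, Cenpa and Cdc20), 5 were lower (Mad2l1, Hmmr, Ttk, Ncapg and Smc2) and 43 did not pass. Of all tested genes, 12.7% were called, 6.53% higher and 6.18% lower. Among the 7403 tested genes with a mean at least that of the lowest of the 55, 16.1% were called (7.82% higher, 8.25% lower), against 21.8% of the 55. With each library scaled to its total reads, the split over all genes was 1176 higher and 621 lower, in place of 903 and 854, and that over the 55 was 9 and 4. No change reached 1.5-fold: the largest were 42.0% higher (Cdc25b) and 1.37-fold lower (Mad2l1). Without Nae1T-KO replicate 3, Cdc25b had a log2 fold change of 0.65, which is past 1.5-fold. The median log2 fold change of the 55 was 0.036, with 33 positive and 22 negative, and that of all tested genes was -0.0061.

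**Figure D1:**
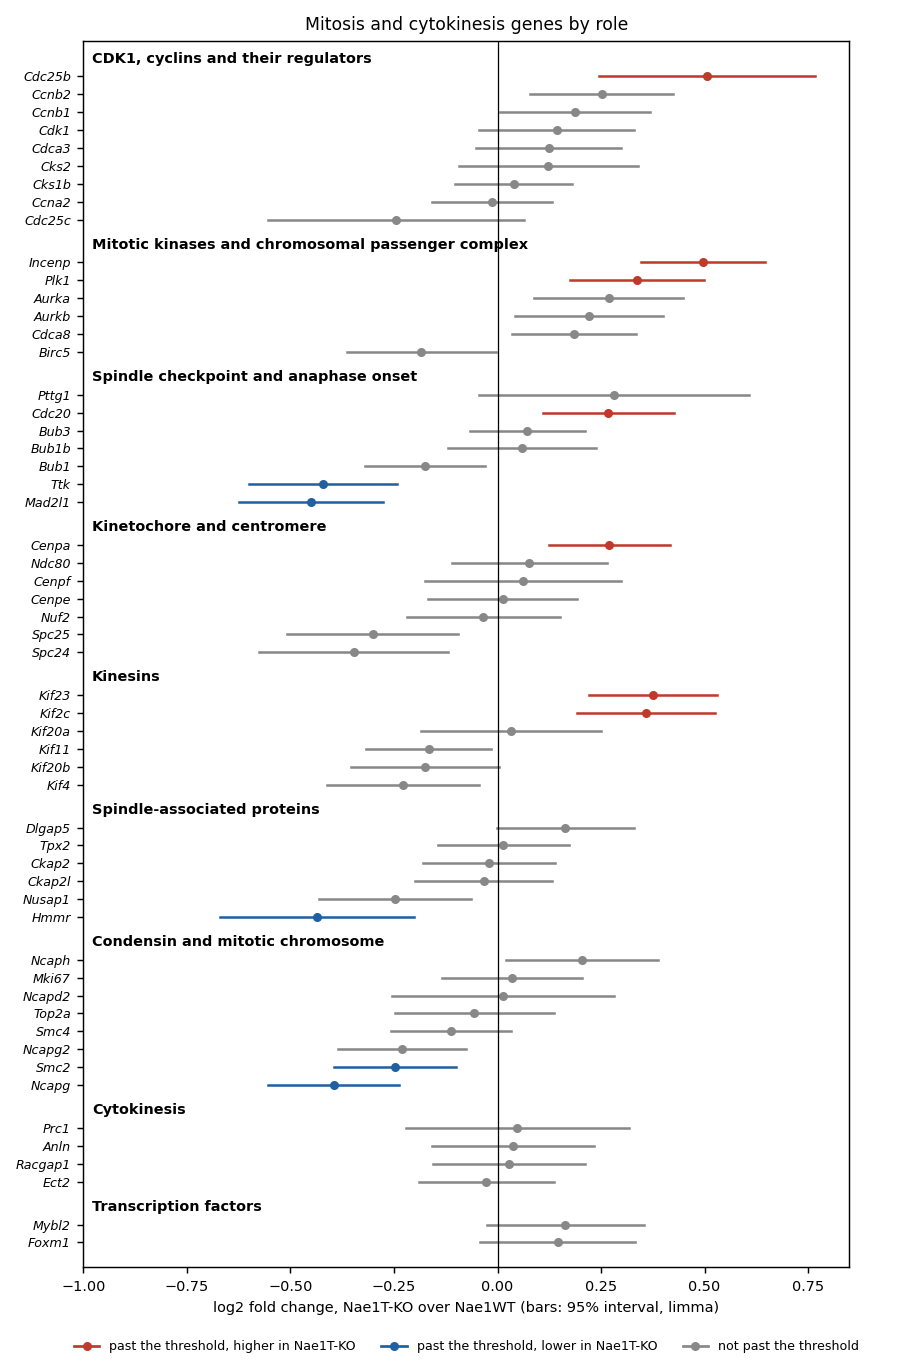
Log2 fold change (Nae1T-KO over Nae1WT, x axis) of the 55 mitosis and cytokinesis genes by role, with 95% intervals from limma, 3 libraries a group. The 7 genes past the threshold and higher (red) and the 5 lower (blue) stand among 43 that did not pass (grey).

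The 55 genes summed to 163001, 147620 and 147522 normalized counts across Nae1T-KO, and to 157047, 151398 and 149885 across Nae1WT, and the groups overlapped. This was 0.858%, 0.803% and 0.770% of all counts in Nae1T-KO, and 0.818%, 0.763% and 0.774% in Nae1WT. Nae1T-KO replicate 1 stood above the rest: it was the highest of the 6 libraries for 31 of the 55 genes, and its median deviation from the genes' means was 0.12 on the log2 scale, against -0.045 and -0.033 in the other Nae1T-KO libraries and 0.030, -0.020 and -0.040 in Nae1WT. Without it 3 of the 55 were higher and 6 lower. Without Nae1T-KO replicate 2 the counts were 4 and 3, and without Nae1WT replicate 2, or replicate 3, they were 3 and 3. In bulk RNA, a change in the share of cells in mitosis and a change in these transcripts per cell cannot be told apart. The groups did not overlap for 28 of the 55 genes, which includes all 12 called ones, against 33.7% of all tested genes and 39.5% of those at least as abundant.

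Of CDK1, its cyclins and their regulators, 1 gene passed and 8 did not. Cdc25b, a phosphatase that starts CDK1 activity at the G2 to mitosis transition, was the one that passed, higher in Nae1T-KO. It had 1315, 1167 and 919.9 normalized counts across Nae1T-KO, against 788, 767 and 814 across Nae1WT, with Nae1T-KO replicate 3 the closest to the Nae1WT libraries and no overlap. Its log2 fold change was 0.51 ± 0.12 (SE), at adjusted p = 0.0205, a level 42.0% higher. The call ended without Nae1T-KO replicate 1 (0.39 at adjusted p = 0.0580), Nae1T-KO replicate 2 (0.48 at adjusted p = 0.0691), Nae1WT replicate 1 (0.50 at adjusted p = 0.0511), Nae1WT replicate 2 (0.49 at adjusted p = 0.0714) or Nae1WT replicate 3 (0.53 at adjusted p = 0.0514). Over the alternatives its adjusted p ran from 0.000887 to 0.169. Its exons overlap those of Spef1 on the other strand, itself at no more than 56.5 normalized counts in any Nae1T-KO library and 48.7 in any Nae1WT library.

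Cdk1, the kinase itself, had 4492, 3843 and 4477 normalized counts across Nae1T-KO, against 3556, 4153 and 3883 across Nae1WT. The groups overlapped, and the log2 fold change was 0.14 with a 95% interval of -0.044 to 0.33 (adjusted p = 0.290). Ccnb1, which encodes cyclin B1, had 6041, 4841 and 5366 normalized counts across Nae1T-KO, against 4698, 4796 and 4708 across Nae1WT, all Nae1T-KO libraries above all Nae1WT libraries, but did not pass (0.19 ± 0.08 (SE), at adjusted p = 0.158). Of its transcript's stretches of 50 bases, 42.1% also occur in other annotated genes, the pseudogene Ccnb1-ps first, so its count is less certain. Ccna2, which encodes cyclin A2, had 4851, 4412 and 4454 normalized counts across Nae1T-KO, against 4726, 4584 and 4519 across Nae1WT, and its log2 fold change was -0.013 (95% interval -0.16 to 0.13). Ccnb2, the cyclin B2 gene, had 0.25 ± 0.08 (SE), at adjusted p = 0.0602 and was called without Nae1T-KO replicate 3 (0.29 at adjusted p = 0.0454), with scaling to total reads (0.30 at adjusted p = 0.0325) and with the GC and length correction (0.24 at adjusted p = 0.0407). The CDK-binding subunit genes Cks1b and Cks2 had log2 fold changes of 0.039 and 0.12. Cks2 was 0.036 without Nae1T-KO replicate 3, and it was called with the GC and length correction (0.23 at adjusted p = 0.0206). Cdca3, linked to the removal of the CDK1 inhibitor WEE1, had 0.12, and Cdc25c, another CDC25 phosphatase gene, had -0.25, and neither passed. For Cks1b and Cks2, 7.75% and 29.7% of the stretches of 50 bases also occur in other annotated genes.

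Incenp had the lowest adjusted p of the 55 genes. INCENP is the scaffold of the chromosomal passenger complex, which holds Aurora B kinase at centromeres and later at the midzone of the spindle. Incenp had 3592, 3506 and 3563 normalized counts across Nae1T-KO, against 2609, 2614 and 2346 across Nae1WT, with the Nae1T-KO libraries close to each other and all above Nae1WT. The log2 fold change was 0.50 ± 0.07 (SE), at adjusted p = 0.00165, 1.41-fold higher, and the call held in all 19 alternatives with adjusted p from 6.33e-08 to 0.0374. The other subunits of the complex did not pass. Aurkb, the Aurora B gene, had 2078, 1877 and 1922 normalized counts across Nae1T-KO, against 1843, 1554 and 1653 across Nae1WT, every Nae1T-KO library above every Nae1WT library, with 0.22 ± 0.08 (SE), at adjusted p = 0.0978. Cdca8, the borealin gene, had 0.18 ± 0.07 (SE), at adjusted p = 0.1003 and Birc5, the survivin gene, had -0.18 ± 0.08 (SE), at adjusted p = 0.164.

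Plk1, a kinase needed from mitotic entry to cytokinesis, had 2588, 2432 and 2220.5 normalized counts across Nae1T-KO, against 1872, 1902 and 1949.8 across Nae1WT, without overlap. The log2 fold change was 0.34 ± 0.07 (SE), at adjusted p = 0.0149, 1.26-fold higher. The call ended without Nae1T-KO replicate 1 (0.28 at adjusted p = 0.0521) or Nae1WT replicate 2 (0.33 at adjusted p = 0.0566) and with a correction for GC content (0.23 at adjusted p = 0.0551). Its adjusted p ranged over the alternatives from 0.00163 to 0.190. Aurka, which encodes the Aurora kinase of spindle poles, had 0.27 ± 0.08 (SE), at adjusted p = 0.0558 and passed with scaling to total reads (0.32 at adjusted p = 0.0356) and in DESeq2 (0.27 at adjusted p = 0.0399).

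**Figure D2:**
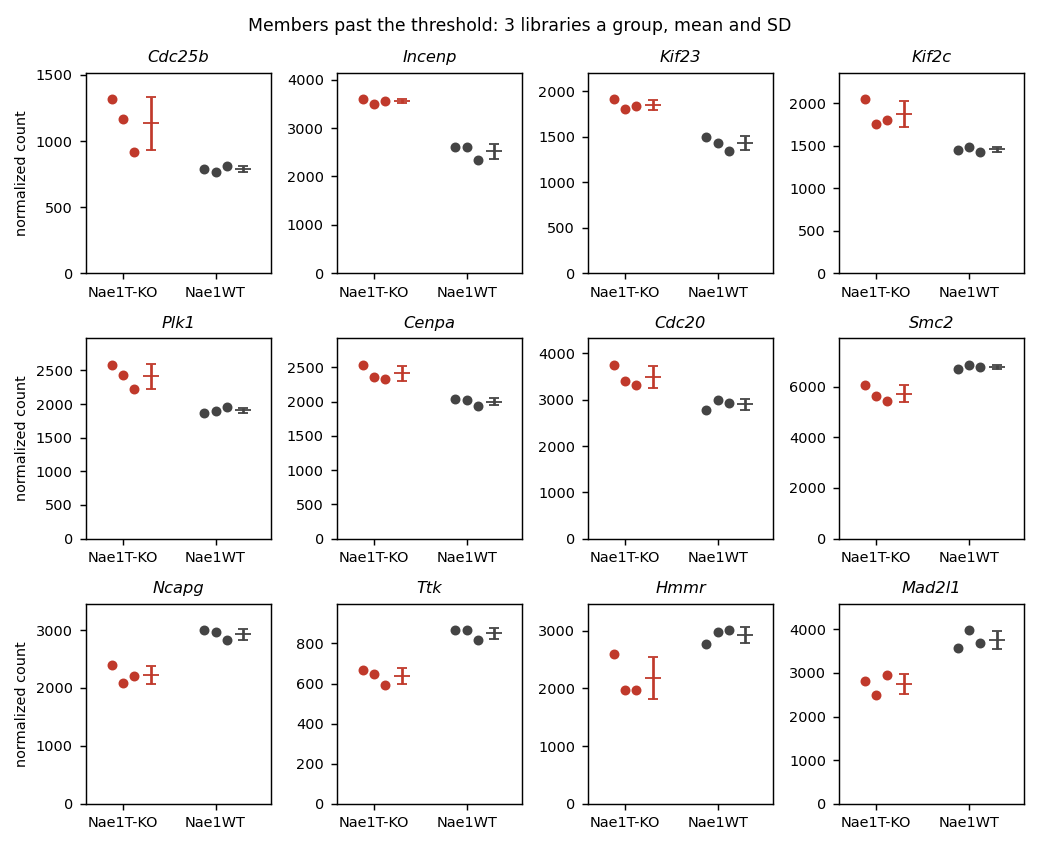
Normalized counts (y axis, from 0) of the 12 called genes in the 3 Nae1T-KO (red) and 3 Nae1WT (grey) libraries, each point a library, with the mean and SD beside the points. In every panel the groups do not overlap, and Cdc25b and Hmmr show the widest spread within Nae1T-KO relative to their level.

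Genes of the spindle checkpoint moved in both directions. Mad2l1, which encodes MAD2, the protein that binds and restrains CDC20, had 2807, 2500.1 and 2952 normalized counts across Nae1T-KO, against 3584, 3992 and 3695 across Nae1WT. Every Nae1T-KO library was below every Nae1WT library, and the log2 fold change was -0.45 ± 0.08 (SE), at adjusted p = 0.00561, 1.37-fold lower in Nae1T-KO. Ttk, the gene of the MPS1 kinase that starts checkpoint signalling, had 669.9, 646 and 593 normalized counts across Nae1T-KO, against 867, 869 and 819 across Nae1WT, again without overlap. Its log2 fold change was -0.42 ± 0.08 (SE), at adjusted p = 0.00884, 1.34-fold lower. Both calls held without each library in turn and with both GC corrections.

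Cdc20, the activator of the anaphase-promoting complex, was on the other side, with 3761, 3410.4 and 3310.0 normalized counts across Nae1T-KO, against 2772, 2994 and 2933 across Nae1WT. Its log2 fold change was 0.27 ± 0.07 (SE), at adjusted p = 0.0344, 1.20-fold higher. The call ended without Nae1T-KO replicate 1 (0.21 at adjusted p = 0.107), Nae1T-KO replicate 2 (0.28 at adjusted p = 0.0651), Nae1WT replicate 1 (0.24 at adjusted p = 0.102), Nae1WT replicate 2 (0.29 at adjusted p = 0.0797) or Nae1WT replicate 3 (0.28 at adjusted p = 0.0988), with the sex covariate (0.24 at adjusted p = 0.0654) and with both GC corrections (0.16 at adjusted p = 0.151, and 0.16 at adjusted p = 0.106 with length). Across alternatives the adjusted p was 0.0128 to 0.274. Of the stretches of 50 bases of its transcript 11.35% also occur in other annotated genes, and its exons overlap those of Elovl1 on the other strand. Elovl1 had 1475, 1429 and 1368 normalized counts across Nae1T-KO, against 1553, 1609.8 and 1563 across Nae1WT. The kinase gene Bub1 had -0.18 ± 0.07 (SE), at adjusted p = 0.103. Bub1b, the BUBR1 gene, had 2940.3, 2721 and 2557 normalized counts across Nae1T-KO, against 2844, 2418 and 2629.7 across Nae1WT, which overlapped, with a log2 fold change of 0.059 (95% interval -0.12 to 0.24). Bub3, whose protein brings both to kinetochores, had 0.072, and Pttg1, the securin gene, had 0.28 with a 95% interval of -0.045 to 0.61.

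At the kinetochore 1 of 7 genes passed. Cenpa, which encodes the histone H3 variant that marks centromeres, had 2542, 2365 and 2332 normalized counts across Nae1T-KO, against 2038, 2024 and 1936 across Nae1WT, without overlap. The log2 fold change was 0.27 ± 0.07 (SE), at adjusted p = 0.0250, 1.21-fold higher. The call ended without Nae1T-KO replicate 1 (0.23 at adjusted p = 0.0811), Nae1T-KO replicate 2 (0.28 at adjusted p = 0.0520), Nae1WT replicate 2 (0.28 at adjusted p = 0.0787) or Nae1WT replicate 3 (0.25 at adjusted p = 0.107). Over the alternatives its adjusted p ran from 0.00880 to 0.190. The 4 genes of the NDC80 complex, which grips microtubules, did not pass. Ndc80 had 1329.8, 1153 and 1319.8 normalized counts across Nae1T-KO, against 1212, 1277 and 1113 across Nae1WT and overlapped (0.077, 95% interval -0.11 to 0.26), and Nuf2 had a log2 fold change of -0.034. Spc24 had 934, 805 and 1023 normalized counts across Nae1T-KO, against 1061, 1279.5 and 1166 across Nae1WT, every Nae1T-KO library below every Nae1WT library (-0.35 ± 0.10 (SE), at adjusted p = 0.0519). Spc25 had 653, 649 and 681 normalized counts across Nae1T-KO, against 733, 915 and 806 across Nae1WT, also without overlap (-0.30 ± 0.09 (SE), at adjusted p = 0.0587). Spc24 passed with no filter (-0.35 at adjusted p = 0.0496), without Nae1T-KO replicate 3 (-0.43 at adjusted p = 0.0248) or Nae1WT replicate 1 (-0.41 at adjusted p = 0.0453), with both GC corrections (-0.40 at adjusted p = 0.0393 and -0.37 at adjusted p = 0.0134) and in DESeq2 (-0.35 at adjusted p = 0.0260). Spc25 passed without Nae1WT replicate 1 (-0.38 at adjusted p = 0.0371), with the GC and length correction (-0.26 at adjusted p = 0.0411) and in DESeq2 (-0.31 at adjusted p = 0.0424). Cenpe, a kinetochore motor, and Cenpf, a kinetochore and nuclear envelope protein, had 0.013 and 0.062.

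Among the kinesins, motors that move along or take apart microtubules, 2 of 6 passed. Kif23 encodes the motor of centralspindlin, the complex that organizes the midzone for cytokinesis. It had 1912, 1804 and 1838 normalized counts across Nae1T-KO, against 1499, 1437 and 1346 across Nae1WT, without overlap, and a log2 fold change of 0.38 ± 0.07 (SE), at adjusted p = 0.00745, 1.30-fold higher. Kif2c encodes MCAK, which shortens microtubules and corrects faulty attachments. It had 2044, 1759 and 1805 normalized counts across Nae1T-KO, against 1455, 1488 and 1425 across Nae1WT, also without overlap, with 0.36 ± 0.08 (SE), at adjusted p = 0.0128, 1.28-fold higher. The call for Kif2c ended without Nae1WT replicate 3 (0.34 at adjusted p = 0.0576). Its adjusted p ranged over the alternatives from 0.00137 to 0.0904. The call for Kif23 held without each library in turn and with both GC corrections. Kif11, the motor that pushes spindle poles apart, had 5358, 4945 and 4728 normalized counts across Nae1T-KO, against 5777, 5595 and 5481 across Nae1WT, each Nae1T-KO library below each Nae1WT library, and did not pass (-0.17 ± 0.07 (SE), at adjusted p = 0.136). The chromosome motor gene Kif4 had -0.23 ± 0.08 (SE), at adjusted p = 0.0973, and was called with the GC and length correction (-0.28 at adjusted p = 0.0367). Kif20b had -0.18 ± 0.08 (SE), at adjusted p = 0.177 and Kif20a, whose protein carries the passenger complex to the midzone, had 0.033.

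Of 6 genes of spindle-associated proteins, Hmmr, whose protein binds spindle microtubules, was the 1 that passed. It had 2597, 1966 and 1968 normalized counts across Nae1T-KO, against 2769, 2984 and 3018 across Nae1WT, with Nae1T-KO replicate 1 closest to Nae1WT and no overlap. The log2 fold change was -0.44 ± 0.11 (SE), at adjusted p = 0.0240, 1.35-fold lower. The call ended without Nae1T-KO replicate 2 (-0.37 at adjusted p = 0.0788), Nae1T-KO replicate 3 (-0.37 at adjusted p = 0.0570), Nae1WT replicate 2 (-0.42 at adjusted p = 0.0828) or Nae1WT replicate 3 (-0.41 at adjusted p = 0.0805) and with the GC correction (-0.35 at adjusted p = 0.0578). Across alternatives the adjusted p was 0.00263 to 0.132. Nusap1, which bundles spindle microtubules, had -0.25 ± 0.08 (SE), at adjusted p = 0.0750 and was called without Nae1T-KO replicate 1 (-0.34 at adjusted p = 0.0257). Dlgap5, which stabilizes the fibres that reach kinetochores, had 0.16. Tpx2, the activator of Aurora A, had 0.014, Ckap2 had -0.021 and Ckap2l had -0.033, with 95% intervals of -0.14 to 0.17, -0.18 to 0.14 and -0.20 to 0.13.

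Condensin compacts chromosomes with a core of SMC2 and SMC4, to which condensin I adds NCAPD2, NCAPG and NCAPH and condensin II adds others, NCAPG2 among them. Ncapg had 2396, 2084 and 2205 normalized counts across Nae1T-KO, against 3005, 2957 and 2824 across Nae1WT, without overlap, and a log2 fold change of -0.40 ± 0.07 (SE), at adjusted p = 0.00664, 1.32-fold lower. With the GC correction it did not pass (-0.25 at adjusted p = 0.0517). Over the alternatives its adjusted p ran from 0.000108 to 0.146. Its exons overlap those of Lcorl on the other strand, which was lower too (-0.31, adjusted p = 0.0489) at 361, 411 and 377 normalized counts across Nae1T-KO, against 469, 486 and 469 across Nae1WT. Smc2 had 6076, 5631 and 5420.4 normalized counts across Nae1T-KO, against 6686, 6870.1 and 6759 across Nae1WT, the Nae1WT libraries close together and above the rest, with -0.25 ± 0.07 (SE), at adjusted p = 0.0350, 1.19-fold lower. Its call ended without Nae1T-KO replicate 2 (-0.24 at adjusted p = 0.0872), Nae1T-KO replicate 3 (-0.21 at adjusted p = 0.0544), Nae1WT replicate 1 (-0.26 at adjusted p = 0.0703), Nae1WT replicate 2 (-0.24 at adjusted p = 0.126) or Nae1WT replicate 3 (-0.25 at adjusted p = 0.113), with scaling to total reads (-0.20 at adjusted p = 0.0707) and with both GC corrections (-0.10 at adjusted p = 0.377, and -0.12 at adjusted p = 0.180 with length). Its adjusted p ranged over the alternatives from 0.0108 to 0.377.

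The other condensin genes did not pass. Ncapg2 had -0.23 ± 0.07 (SE), at adjusted p = 0.0552, Ncaph 0.20 ± 0.08 (SE), at adjusted p = 0.131, Smc4 -0.11 ± 0.07 (SE), at adjusted p = 0.288 and Ncapd2 0.014 with a 95% interval of -0.25 to 0.28. Ncapg2 passed with the stricter filter (-0.23 at adjusted p = 0.0495), in DESeq2 (-0.23 at adjusted p = 0.0347), with the sex covariate (-0.26 at adjusted p = 0.0460) and with the GC and length correction (-0.22 at adjusted p = 0.0243). Top2a, the topoisomerase that untangles sister chromatids, had 17946, 15908 and 14934 normalized counts across Nae1T-KO, against 18252, 15693 and 16710.0 across Nae1WT. Mki67, which encodes the proliferation marker Ki-67 of the chromosome surface, had 14609.9, 13482 and 13771 normalized counts across Nae1T-KO, against 14924, 13089 and 12896 across Nae1WT. Both overlapped between the groups, with log2 fold changes of -0.056 (95% interval -0.25 to 0.14) and 0.036 (95% interval -0.13 to 0.21).

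**Figure D3:**
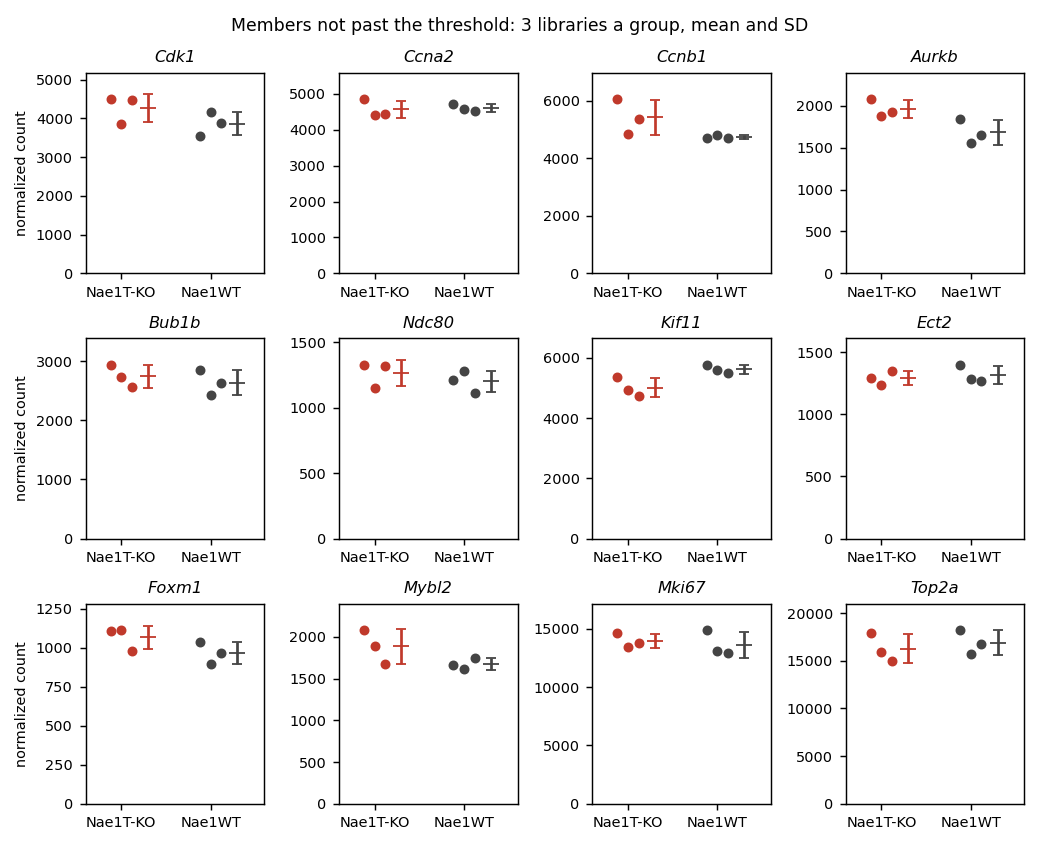
Normalized counts (y axis, from 0) of 12 genes that did not pass the test, in the 3 Nae1T-KO (red) and 3 Nae1WT (grey) libraries, each point a library, with the mean and SD beside the points. Mki67 averaged 13954 ± 586 in Nae1T-KO and 13637 ± 1119.5 in Nae1WT (SD, n = 3 each), and Top2a 16263 ± 1537 in Nae1T-KO and 16885 ± 1289 in Nae1WT (SD, n = 3 each).

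None of the 4 genes placed in the cytokinesis group passed. Kif23, the motor gene of centralspindlin, was placed with the kinesins and was higher (0.38 at adjusted p = 0.00745). Of Prc1, which bundles midzone microtubules, Anln, which ties actin to the furrow, Ect2, an exchange factor that starts furrow formation, and Racgap1, the partner of KIF23 in centralspindlin, limma called 0, with 0 at an unadjusted p under 0.05 and 0 in edgeR and DESeq2 on recovered reads. Ect2 had 1293, 1236 and 1349 normalized counts across Nae1T-KO, against 1401, 1282 and 1269.9 across Nae1WT, which overlapped (-0.027, 95% interval -0.19 to 0.14). The log2 fold change was 0.048 for Prc1 (95% interval -0.22 to 0.32), 0.037 for Anln (-0.16 to 0.23) and 0.028 for Racgap1 (-0.16 to 0.21). Over the alternatives Prc1 ranged from -0.064 to 0.18, Anln from -0.041 to 0.095, Ect2 from -0.058 to 0.10 and Racgap1 from -0.051 to 0.10.

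The transcription factors that drive this gene set did not pass in limma, edgeR or DESeq2, with 0 of 2 also at an unadjusted p under 0.05. Foxm1 had 1104, 1115 and 981 normalized counts across Nae1T-KO, against 1034, 897 and 963 across Nae1WT, which overlapped (0.15, 95% interval -0.042 to 0.33). Mybl2 had 2087, 1895 and 1677 normalized counts across Nae1T-KO, against 1664, 1618 and 1752 across Nae1WT, which overlapped through Nae1T-KO replicate 3 (0.16, 95% interval -0.026 to 0.35). Of the stretches of 50 bases of Mybl2, 23.85% also occur in other annotated genes. Shares over 5% were also found for Racgap1 (7.89%), Spc24 (7.52%), Plk1 (6.84%) and Ndc80 (5.34%), whose counts are likewise less certain.

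The called genes also differed in base composition. The transcripts of the 7 higher genes had a GC content of 46.3% to 55.98%, with a median of 54.2%, and those of the 5 lower genes 39.7% to 43.0%, with a median of 40.1%. The same relation ran through the whole table: the median log2 fold change was -0.14 in the bin of tested genes with the lowest GC content, of 5 equal bins (15.6% lower, 3.23% higher) and 0.095 in the bin with the highest (2.53% lower, 10.7% higher). In the lowest bin the median log2 deviation from the genes' means was -0.064, -0.066 and -0.054 across Nae1T-KO, against 0.0495, 0.084 and 0.068 across Nae1WT, so it moved with the genotype in every library. A technical relation to base composition and one that comes from the genotype cannot be told apart in these libraries, and the cause was not tested. With each library corrected for GC content, a fit added after seeing the data, 7 of the 12 calls held: Cdc25b, Incenp, Kif23, Kif2c, Cenpa, Mad2l1 and Ttk. Cdc20, Plk1, Hmmr, Ncapg and Smc2 did not pass, and Spc24 did. With GC content and length corrected together, 8 were higher and 8 lower. Of the 12 calls 10 held then, those of Plk1, Hmmr and Ncapg among them, while Cdc20 and Smc2 did not pass. The Mad2l1 transcript used here, of 7557 bases, is longer than the whole RefSeq gene, so its GC content and length are less certain.

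**Figure D4:**
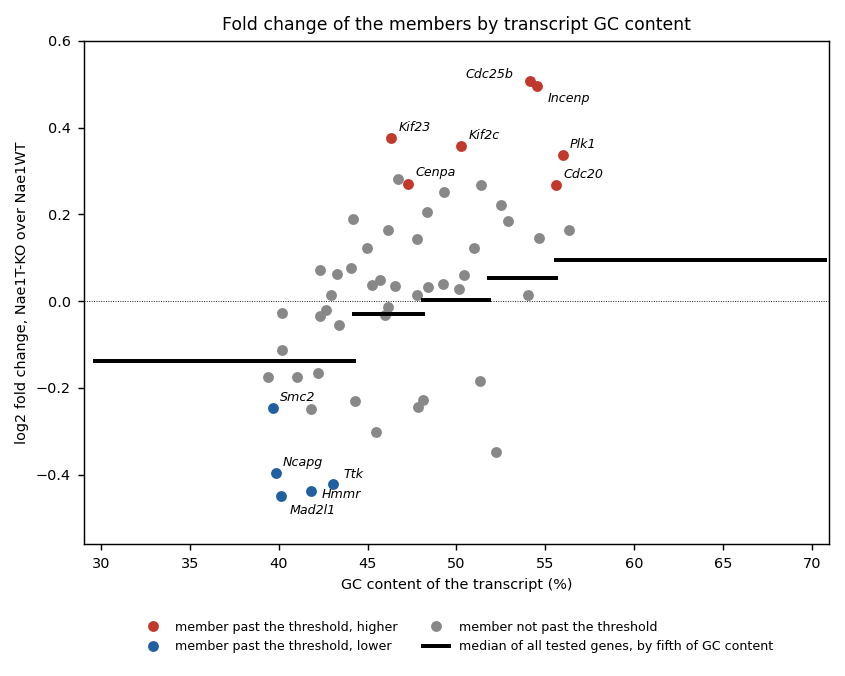
GC content of the transcript (x axis, %) against log2 fold change (y axis, Nae1T-KO over Nae1WT) of the 55 genes, coloured by call, with the median of all tested genes in each of 5 equal bins of GC content as black bars. The 5 lower genes lie between 39.7% and 43.0% GC, and the 7 higher genes between 46.3% and 55.98%.

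Within each sex 1 group is a single library, so differences there have no test, and their direction is set by the lack of overlap between the groups. The 7 higher genes differed by 0.29 to 0.61 on the log2 scale between female libraries and by 0.20 to 0.45 between male ones. The 5 lower genes differed by -0.48 to -0.21 between female libraries and by -0.55 to -0.32 between male ones. With sex as a covariate 6 of the 55 were higher and 6 lower. Of the 12, 5 (Incenp, Mad2l1, Ttk, Kif23 and Ncapg) were called without each library in turn.

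Further genes of mitosis, 128 in 7 lists chosen for their function, gave a similar share of calls. The lists were chosen with earlier results of these data known, so their shares are a description only. Of the 128, 9 were higher and 18 lower, while 101 did not pass, with a median log2 fold change of -0.022. The share called was 21.1%, against 12.7% of all tested genes. It was 16.1% among tested genes at least as abundant as the lowest of the 55, though some of the 128 were less abundant than that. With the GC correction 8 were higher and 11 lower of the 126 with a GC content, without Nae1WT replicate 3 it was 5 and 8, and without Nae1WT replicate 2 the lower ones were 7. The APC/C list had 2 of 18 higher and 3 lower. The higher ones were the ubiquitin-conjugating enzyme genes of the complex: Ube2c had 3005, 2775 and 2662 normalized counts across Nae1T-KO, against 1934, 1841 and 1733 across Nae1WT (0.62 ± 0.07 (SE), at adjusted p = 0.000920), and Ube2s had 4416, 4107 and 4368 normalized counts across Nae1T-KO, against 3152, 3426 and 3212 across Nae1WT (0.40 ± 0.07 (SE), at adjusted p = 0.00452). Neither overlapped between the groups. Anapc10, whose protein helps bind substrates, was lower (-0.58 ± 0.10 (SE), at adjusted p = 0.00546), as was Anapc16 (-0.32 ± 0.09 (SE), at adjusted p = 0.0441), which did not pass without Nae1T-KO replicate 1 (-0.29 at adjusted p = 0.115), Nae1T-KO replicate 2 (-0.32 at adjusted p = 0.102), Nae1WT replicate 2 (-0.24 at adjusted p = 0.171) or Nae1WT replicate 3 (-0.35 at adjusted p = 0.0916), or with scaling to total reads (-0.27 at adjusted p = 0.0662) or with the sex covariate (-0.29 at adjusted p = 0.0829).

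Kinetochore and centromere genes outside the 55 included 8 of 31 that were lower. This was 25.8%, against 6.18% of all tested genes and 8.25% of those at least as abundant as the lowest of the 55, though some of the 31 were less abundant than that. Limma called 0 of the 31 higher, with 1 at an unadjusted p under 0.05 and 0 in edgeR and DESeq2. Cenpp and Itgb3bp, of the constitutive centromere network, had the largest decreases, -0.75 ± 0.11 (SE), at adjusted p = 0.00208 and -0.66 ± 0.14 (SE), at adjusted p = 0.0157. Both were among the less abundant, with mean normalized counts of 206 and 137 in Nae1T-KO, against 346 and 215 in Nae1WT. Itgb3bp did not pass without Nae1WT replicate 2 (-0.60 at adjusted p = 0.0690) or Nae1WT replicate 3 (-0.66 at adjusted p = 0.0527), or with the GC correction (-0.46 at adjusted p = 0.0504). Across alternatives the adjusted p was 0.00399 to 0.131. The median log2 fold change of the list was -0.15. Its median GC content was 45.0%, against 50% over all tested genes, and with the GC correction 3 were lower and 1 higher.

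Cohesin and separase genes had 2 of 16 higher and 2 lower. Esco1, which acetylates cohesin, had 1218, 1214 and 1292 normalized counts across Nae1T-KO, against 1713, 1761 and 1883 across Nae1WT (-0.52 ± 0.07 (SE), at adjusted p = 0.00151), and the cohesin subunit gene Stag2 was lower (-0.39 ± 0.06 (SE), at adjusted p = 0.00418), though not with the GC correction (-0.19 at adjusted p = 0.102). Cdca5, the sororin gene, was higher (0.35 ± 0.07 (SE), at adjusted p = 0.0111), as was the subunit gene Rad21 (0.22 ± 0.06 (SE), at adjusted p = 0.0373), whose call ended without Nae1T-KO replicate 1 (0.21 at adjusted p = 0.0988), Nae1T-KO replicate 2 (0.23 at adjusted p = 0.0673), Nae1WT replicate 1 (0.22 at adjusted p = 0.0847), Nae1WT replicate 2 (0.21 at adjusted p = 0.138) or Nae1WT replicate 3 (0.23 at adjusted p = 0.118), or with the sex covariate (0.22 at adjusted p = 0.0603). Among 15 further regulators of mitotic entry and the checkpoint, Gtse1, whose protein binds microtubules and p53, was higher (0.57 ± 0.07 (SE), at adjusted p = 0.00118), and Mastl, the Greatwall kinase gene, was lower (-0.40 ± 0.10 (SE), at adjusted p = 0.0292). These 2 were 13.3% of the 15. Mastl did not pass without Nae1T-KO replicate 2 (-0.40 at adjusted p = 0.0721), Nae1T-KO replicate 3 (-0.32 at adjusted p = 0.0607), Nae1WT replicate 1 (-0.37 at adjusted p = 0.0808), Nae1WT replicate 2 (-0.38 at adjusted p = 0.0981) or Nae1WT replicate 3 (-0.44 at adjusted p = 0.0580), or with scaling to total reads (-0.35 at adjusted p = 0.0531) or with the GC correction (-0.28 at adjusted p = 0.106).

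Other spindle and centrosome genes had 2 of 32 higher and 3 lower. Kif18a, whose motor dampens chromosome movements, had 744, 658 and 684 normalized counts across Nae1T-KO, against 1012, 1092 and 1079 across Nae1WT (-0.61 ± 0.08 (SE), at adjusted p = 0.00133), and the augmin subunit gene Haus1 was lower as well (-0.44 ± 0.09 (SE), at adjusted p = 0.009999). Kifc1 and Tacc3 were higher (0.34 ± 0.08 (SE), at adjusted p = 0.0208 and 0.30 ± 0.09 (SE), at adjusted p = 0.0477). Kifc1 did not pass without Nae1T-KO replicate 1 (0.28 at adjusted p = 0.0672), Nae1WT replicate 1 (0.31 at adjusted p = 0.0631) or Nae1WT replicate 3 (0.33 at adjusted p = 0.0746), or with the GC correction (0.23 at adjusted p = 0.0913) or with the GC and length correction (0.20 at adjusted p = 0.0894). Tacc3 did not pass without Nae1T-KO replicate 1 (0.28 at adjusted p = 0.124), Nae1T-KO replicate 3 (0.25 at adjusted p = 0.0973), Nae1WT replicate 2 (0.31 at adjusted p = 0.113) or Nae1WT replicate 3 (0.24 at adjusted p = 0.173), or in edgeR (0.30 at adjusted p = 0.0526), with the GC correction (0.24 at adjusted p = 0.115) or with the GC and length correction (0.23 at adjusted p = 0.117). In the list of condensin II and further cytokinesis genes, 1 of 11 was higher, the abscission gene Chmp4b (0.40 ± 0.07 (SE), at adjusted p = 0.00602), and 1 lower, Septin7 (-0.31 ± 0.08 (SE), at adjusted p = 0.0302), which did not pass without Nae1T-KO replicate 1 (-0.29 at adjusted p = 0.0903), Nae1T-KO replicate 2 (-0.28 at adjusted p = 0.0870), Nae1WT replicate 2 (-0.24 at adjusted p = 0.128) or Nae1WT replicate 3 (-0.35 at adjusted p = 0.0664), or with the sex covariate (-0.27 at adjusted p = 0.0543). Of 5 MuvB subunit genes, Lin37 was higher (0.48 ± 0.11 (SE), at adjusted p = 0.0209), though not without Nae1T-KO replicate 2 (0.47 at adjusted p = 0.0668), Nae1WT replicate 2 (0.49 at adjusted p = 0.0626) or Nae1WT replicate 3 (0.42 at adjusted p = 0.0810), or with the GC correction (0.37 at adjusted p = 0.0669).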

How the data were processed

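RNA was sequenced from 3 Nae1T-KO and 3 Nae1WT libraries of mouse CD8+ T cells. Per the labels' protocols, poly-T beads selected the messenger RNA and random hexamers primed the cDNA. Per the submitters' processing notes, bcl2fastq, HISAT2, DESeq2 1.42.0 and the mm10 build were used. How reads were counted, on which annotation and whether by strand, is not given in the sources used here, so overlapping genes and near-identical copies may share reads.

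The values the authors deposited are normalized counts (a signal, at least 0) for 18288 gene symbols. They were whole multiples of what 1 read is worth (tolerance 0.001 of a read, 100% of values), which gave back the reads. In Nae1T-KO replicate 3 that worth is nearly 1, which makes its recovery less sure. Totals were 15628252 to 25444653 reads.

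The 13819 genes with a normalized count of at least 10 in at least 3 libraries were tested with limma 3.58.1 (R 4.3.3, trended and robust variances, two-sided) after log2(normalized count + 1). Fold changes on that scale are understated for low genes. Alternatives were TMM and total-count scaling, no filter, a minimum of 50, pseudocounts of 0.5 and 5, edgeR 4.0.16 and DESeq2 1.42.0 on recovered reads, each library left out, blocks by replicate number, and a sex covariate (Xist above 1000). Corrections for GC content, alone or with length (splines with 5 degrees of freedom, over the 93% of tested genes with a GENCODE M21 transcript), were added after seeing the data. The fits were tested on simulated counts, where limma, edgeR and DESeq2 recovered most large changes, missed many small ones and made a larger share of false calls than the threshold allows.

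Values in every library are given for each called member, up to 3 per direction in a role, and for a set of members named whatever their test. Up to 2 called genes per direction are named in each further list. Spc24 and Spc25 were given in full after their values were seen. Members, roles and lists were chosen with earlier results of these data known. Positions and promoters are RefSeq's (GRCm38.p6, the mm10 assembly), and all 55 symbols matched.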

Additional observations from a re-analysis of the deposited data

How the results depend on the processing

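The direction of the 12 called members was the same in all 19 alternatives, though leaving out a library could hardly turn it, since their groups do not overlap. Incenp was called in all 19, and Mad2l1, Ttk and Kif23 in all but the block by library-name number. TMM scaling, no filter, the stricter filter, both pseudocounts, edgeR and DESeq2 each kept all 12, and DESeq2 called 8 higher and 8 lower. Leaving out 1 library at a time gave 842 to 1767 called genes in place of 1757 (842 without Nae1WT replicate 2, 954 without its replicate 3 and 1017 without Nae1T-KO replicate 2), 3 to 8 members higher and 3 to 6 lower, and 5 to 13 further mitosis genes higher and 7 to 16 lower, with fewer samples. The GC correction gave 3 members and 11 further genes lower, and GC and length together 8 members lower. Libraries with the same title number had correlations of deviations from the group means of -0.13, -0.18 and -0.27. No library correlated best with its own number. Deviations from a mean of 3 libraries sum to 0, and libraries with the same title number also differed in sex. The correlations therefore cannot decide whether replicate numbers pair the libraries. With the replicate block by title number 968 genes were called, with 4 members higher and 3 lower and 5 further genes higher and 11 lower. With the replicate block by the number in the library names, on 4 libraries, 314 genes were called, with 1 member higher and 0 lower and 2 further genes higher and 3 lower. Members that did not pass changed sign near 0 (log2 fold changes). With total-count scaling these were Ccna2 0.034, Nuf2 0.013, Ckap2 0.026, Ckap2l 0.014 and Ect2 0.020. With the block by library-name number they were Ccna2 0.030, Nuf2 0.026, Ckap2 0.031, Top2a 0.016 and Ect2 0.050. With sex as a covariate they were Cenpe -0.018, Ncapd2 -0.065, Prc1 -0.026, Ect2 0.0017 and Racgap1 -0.0072. With the GC correction they were Nuf2 0.042, Tpx2 -0.0047, Ckap2 0.047, Smc4 0.019, Ncapd2 -0.067, Ect2 0.10 and Racgap1 -0.0071, and with GC and length Nuf2 0.037, Kif20a -0.00086, Tpx2 -0.026, Ckap2 0.044, Smc4 0.011, Ncapd2 -0.10, Mki67 -0.012, Ect2 0.10 and Racgap1 -0.017. Leaving out 1 library gave Ccna2 -0.056 to 0.012, Cenpe -0.053 to 0.084, Cenpf -0.029 to 0.18, Nuf2 -0.092 to 0.042, Kif20a -0.036 to 0.12, Tpx2 -0.044 to 0.050, Ckap2 -0.048 to 0.010, Ckap2l -0.084 to 0.0038, Ncapd2 -0.067 to 0.15, Top2a -0.13 to 0.0037, Mki67 -0.0031 to 0.10, Prc1 -0.064 to 0.18, Anln -0.041 to 0.077, Ect2 -0.058 to 0.018 and Racgap1 -0.051 to 0.10. The cause of these sign changes was not tested. With 3 libraries a group the 95% intervals of the members reach 0.14 to 0.33 to either side on the log2 scale. They are not adjusted for the number of genes tested. A difference smaller than the width for its own gene could not be told from 0.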

Other observations

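Ratios between members that act together are given for pairs chosen after their values were seen to move apart, so they carry no test and are a description only. Ratios are of normalized counts, not corrected for length, and are compared between libraries only. Mad2l1 to Cdc20, the checkpoint inhibitor to its target, stood at 0.746, 0.733 and 0.892 in Nae1T-KO, against 1.29, 1.33 and 1.26 in Nae1WT. Incenp to Birc5, 2 subunits of the chromosomal passenger complex, stood at 1.98, 2.21 and 2.36 in Nae1T-KO, against 1.44, 1.34 and 1.30 in Nae1WT. Ncapg to Ncaph, 2 subunits of condensin I, stood at 1.44, 1.33 and 1.34 in Nae1T-KO, against 1.97, 2.35 and 1.93 in Nae1WT. Spc24 to Ndc80, 2 subunits of the NDC80 complex, stood at 0.702, 0.698 and 0.775 in Nae1T-KO, against 0.875, 1.00 and 1.05 in Nae1WT.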
